A study of Mus musculus with 110 samples.

Results

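Glucose is made in the liver by gluconeogenesis, a route that runs glycolysis backwards around its irreversible steps. The 9 genes described here encode enzymes of that route, enzymes that feed amino acid carbon into it, the pyruvate kinase that opposes it and the receptor through which glucagon turns it on. They were chosen by function from the 56884 genes counted, with no measured value in the rule. The members are Pck1, Pck2, Fbp1, Pcx, Pklr, Gcgr, Got1, Tat and Sds.

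All mice were wild-type male C57BL/6N animals, single-housed and 16 weeks old at the end. Ctrl_RT mice ate a control diet of 0.86% methionine for 7 days at 22 °C, and MetR_RT mice a methionine-restricted diet of 0.12% methionine under the same conditions. Ctrl_CE and MetR_CE mice ate these diets for 7 days and were then moved to 4 °C for 24 h. The methionine content of the control diet is that of the series' design text, and the study's methods give a slightly lower one. Both diets lacked cysteine, so the controls carried that restriction as well, and a cold effect and an extra day on the diet cannot be told apart. Poly(A) RNA was sequenced from liver, interscapular brown (iBAT), inguinal white (iWAT) and epididymal white (eWAT) adipose tissue of 28 mice in 4 groups of 7.

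Phosphoenolpyruvate carboxykinase forms phosphoenolpyruvate from oxaloacetate, in the cytosol (Pck1) or the mitochondrion (Pck2), and pyruvate carboxylase (Pcx) supplies the oxaloacetate. Fructose-1,6-bisphosphatase (Fbp1) removes a phosphate further up the route, and liver pyruvate kinase (Pklr) returns phosphoenolpyruvate to pyruvate. Glucagon, acting on its receptor (Gcgr), raises cyclic AMP, which activates the factor CREB, whereas a shortage of amino acids raises the factor ATF4. In adipocytes the products of Pck1 and Pcx serve the making of glycerol phosphate and of fatty acids rather than glucose release.

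The promoter windows of the 6 members that rose in the liver are shown, because CREB and ATF4 are known to act on genes of this kind. Each window reaches from 250 bases before to 50 bases after a RefSeq start site (GRCm38.p6) and is written on the strand of the gene. Capitals mark matches to the motifs searched on both strands: TGACG (the CREB half-site), TGATGNAA (the core of the ATF4 composite site), TGTTTAC (a FOXO site) and CACGTG (an E-box). Pklr has a window for each of its alternative starts.
Pck1, chr2:173152823-173153122, plus strand: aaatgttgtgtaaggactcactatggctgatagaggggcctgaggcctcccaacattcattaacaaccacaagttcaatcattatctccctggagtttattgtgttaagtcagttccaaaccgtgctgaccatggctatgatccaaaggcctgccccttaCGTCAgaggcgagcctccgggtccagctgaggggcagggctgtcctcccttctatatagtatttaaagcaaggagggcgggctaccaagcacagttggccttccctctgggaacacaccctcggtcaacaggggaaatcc
Pck2, chr14:55540016-55540315, plus strand: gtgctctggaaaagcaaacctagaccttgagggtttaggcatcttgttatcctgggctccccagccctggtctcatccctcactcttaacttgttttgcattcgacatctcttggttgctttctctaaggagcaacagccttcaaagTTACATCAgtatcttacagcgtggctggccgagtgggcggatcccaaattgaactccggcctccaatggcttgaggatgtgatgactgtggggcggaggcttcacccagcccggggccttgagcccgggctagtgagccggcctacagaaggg
Got1, chr19:43524556-43524855, minus strand: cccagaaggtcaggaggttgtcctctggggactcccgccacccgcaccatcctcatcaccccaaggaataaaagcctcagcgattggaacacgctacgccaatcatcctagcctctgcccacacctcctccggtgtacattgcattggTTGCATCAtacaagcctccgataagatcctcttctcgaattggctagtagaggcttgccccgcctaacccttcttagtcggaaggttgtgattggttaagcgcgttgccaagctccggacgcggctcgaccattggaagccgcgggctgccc
Fbp1, chr13:62888233-62888532, minus strand: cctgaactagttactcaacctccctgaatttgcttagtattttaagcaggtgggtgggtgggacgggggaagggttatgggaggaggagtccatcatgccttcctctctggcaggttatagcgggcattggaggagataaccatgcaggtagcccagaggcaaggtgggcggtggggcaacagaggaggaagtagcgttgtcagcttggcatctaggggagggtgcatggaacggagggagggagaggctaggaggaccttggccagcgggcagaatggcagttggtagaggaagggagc
Pklr, chr3:89135892-89136191, plus strand: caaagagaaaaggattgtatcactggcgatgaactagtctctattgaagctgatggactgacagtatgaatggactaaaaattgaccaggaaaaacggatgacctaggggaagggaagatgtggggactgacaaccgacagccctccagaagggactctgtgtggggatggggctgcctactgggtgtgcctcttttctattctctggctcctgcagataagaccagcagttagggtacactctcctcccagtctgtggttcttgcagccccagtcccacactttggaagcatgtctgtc
Pklr, chr3:89136373-89136672, plus strand: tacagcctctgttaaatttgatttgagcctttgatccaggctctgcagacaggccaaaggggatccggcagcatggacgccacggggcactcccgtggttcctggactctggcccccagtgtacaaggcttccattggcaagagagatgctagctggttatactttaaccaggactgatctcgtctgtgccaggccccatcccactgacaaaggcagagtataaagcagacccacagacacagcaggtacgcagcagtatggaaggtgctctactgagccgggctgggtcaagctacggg
Tat, chr8:109990186-109990485, plus strand: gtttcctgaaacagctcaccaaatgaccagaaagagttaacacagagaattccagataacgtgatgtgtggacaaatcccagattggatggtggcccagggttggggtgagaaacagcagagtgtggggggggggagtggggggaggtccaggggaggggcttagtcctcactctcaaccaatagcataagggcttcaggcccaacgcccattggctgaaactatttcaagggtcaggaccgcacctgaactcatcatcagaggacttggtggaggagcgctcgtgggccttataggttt

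The Pck1 window held the letters of the CREB half-site at position -90 from the start, on the opposite strand. That motif stood in 20.8% of all 32817 mouse promoter windows. The Pck2 and Got1 windows each held the ATF4 core, at positions -103 (TTACATCA) and -102 (TTGCATCA), a motif found in 3.97% of windows. The FOXO letters (3.65% of windows) matched in none of the 10 windows of 8 members, and the E-box (7.15% of windows) matched in a Pcx window, at position -248. A match is a run of letters only, and the windows of Fbp1, Pklr, Tat and Gcgr held none of the 4 motifs.

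In GRCm38, Pck1 lies at chr2:173153048-173159273, Pck2 at chr14:55540266-55551242 and Pcx at chr19:4510472-4621752, all on the plus strand. Fbp1 (chr13:62864753-62888282) and Got1 (chr19:43499752-43524605) lie on the minus strand. Pklr (chr3:89136142-89146784), Gcgr (chr11:120530699-120538986), Tat (chr8:109990437-109999803) and Sds (chr5:120476526-120483932) are on the plus strand, and all 9 are protein-coding. The library kit does not mark strand, so reads of genes that overlap on opposite strands cannot be told apart. Of the exonic bases of Pklr, 22.0% overlap Hcn3, and of those of Sds, 21.3% overlap Plbd2 and 8.32% Gm15690, and of those of Pck2, 0.679% overlap Gm10876.

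Levels are given as CPM (a gene's counts scaled to a common library size), normalized by the TMM method within each tissue, with no correction for gene length, so values are compared between groups and not between genes. A gene is called when edgeR's quasi-likelihood test gave a Benjamini-Hochberg adjusted p under 0.05 over all genes of the tissue and the change was at least 1.5-fold. Log2 fold changes carry their standard error. Every library was labelled as a separate mouse within its tissue. All comparisons with Ctrl_RT share the same control libraries.

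Library totals ranged from 6987895 to 33444374 counts in liver, 12672686 to 31232349 in iBAT, 16607493 to 33141066 in iWAT and 22021114 to 33372110 in eWAT. The 5 libraries that the study left out as outliers, 1 of iBAT and 4 of eWAT, were left out here too, which gave 105 libraries and groups of 7 except for 6 in iBAT Ctrl_RT, iBAT Ctrl_CE, iWAT MetR_CE and eWAT MetR_RT and 4 in eWAT Ctrl_RT. For 3 iBAT libraries the treatment tag names another group than the title, and the title was used. Their library names, and the groups of the same mice in the other tissues, go with the titles and not with the tags. In liver the 5 hepatocyte markers measured summed to 42640 to 84031 CPM, whereas the brown adipocyte marker Ucp1 and the muscle marker Ckm were at 0 in all 28 liver libraries. Of the other markers of those lists, Elovl3 ran from 12.3 to 763 CPM and Mylpf from 0.455 to 1.48 CPM in liver, and the other 5 stayed under 0.15 CPM. Liver Ctrl_RT replicate 5 and Ctrl_CE replicate 4 stand apart for several members, and calls on members that change without them are given beside the result.

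All 9 members had counts in each of the 28 liver libraries, Pck2 at only 3.51 to 5.19 CPM on the control diet. Of the 9, 6 were called higher in at least 1 comparison with Ctrl_RT. The share of all genes called so in at least 1 was not counted, and the shares that follow are for single comparisons. Against Ctrl_RT, 4 of 9 members were called in Ctrl_CE, all higher, where 11.9% of all genes tested were called. In MetR_RT, 2 of 9 were called, both higher, beside 6.91% of all genes, and in MetR_CE 5 of 9, all higher, beside 13.5%. The MetR_RT count was 1 without Ctrl_RT replicate 1, 3, 4 or 7 or MetR_RT replicate 4 or 5, 4 without MetR_RT replicate 1 or 2 and 5 without Ctrl_RT replicate 5, with a decrease of Pck1 among the calls gained. The MetR_CE count was 3 without Ctrl_RT replicate 1. The median log2 fold change of the members was 0.37, 0.03 and 0.73 in these comparisons, against -0.01, 0.0045 and -0.04 over all genes. Marker sums moved with the groups: the summed endothelial and stellate markers were 122 to 220 CPM in Ctrl_RT, 223 to 385 in Ctrl_CE, 170 to 234 in MetR_RT and 240 to 289.2 in MetR_CE. The summed hepatocyte markers had medians of 62641, 56572, 61636 and 47352 CPM in the same order, and macrophage markers of 298, 455, 170 and 231 CPM. In bulk tissue, fewer cells of a type and less RNA per cell cannot be told apart, and the part of these shifts in the members' changes was not tested.

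**Figure D1:**
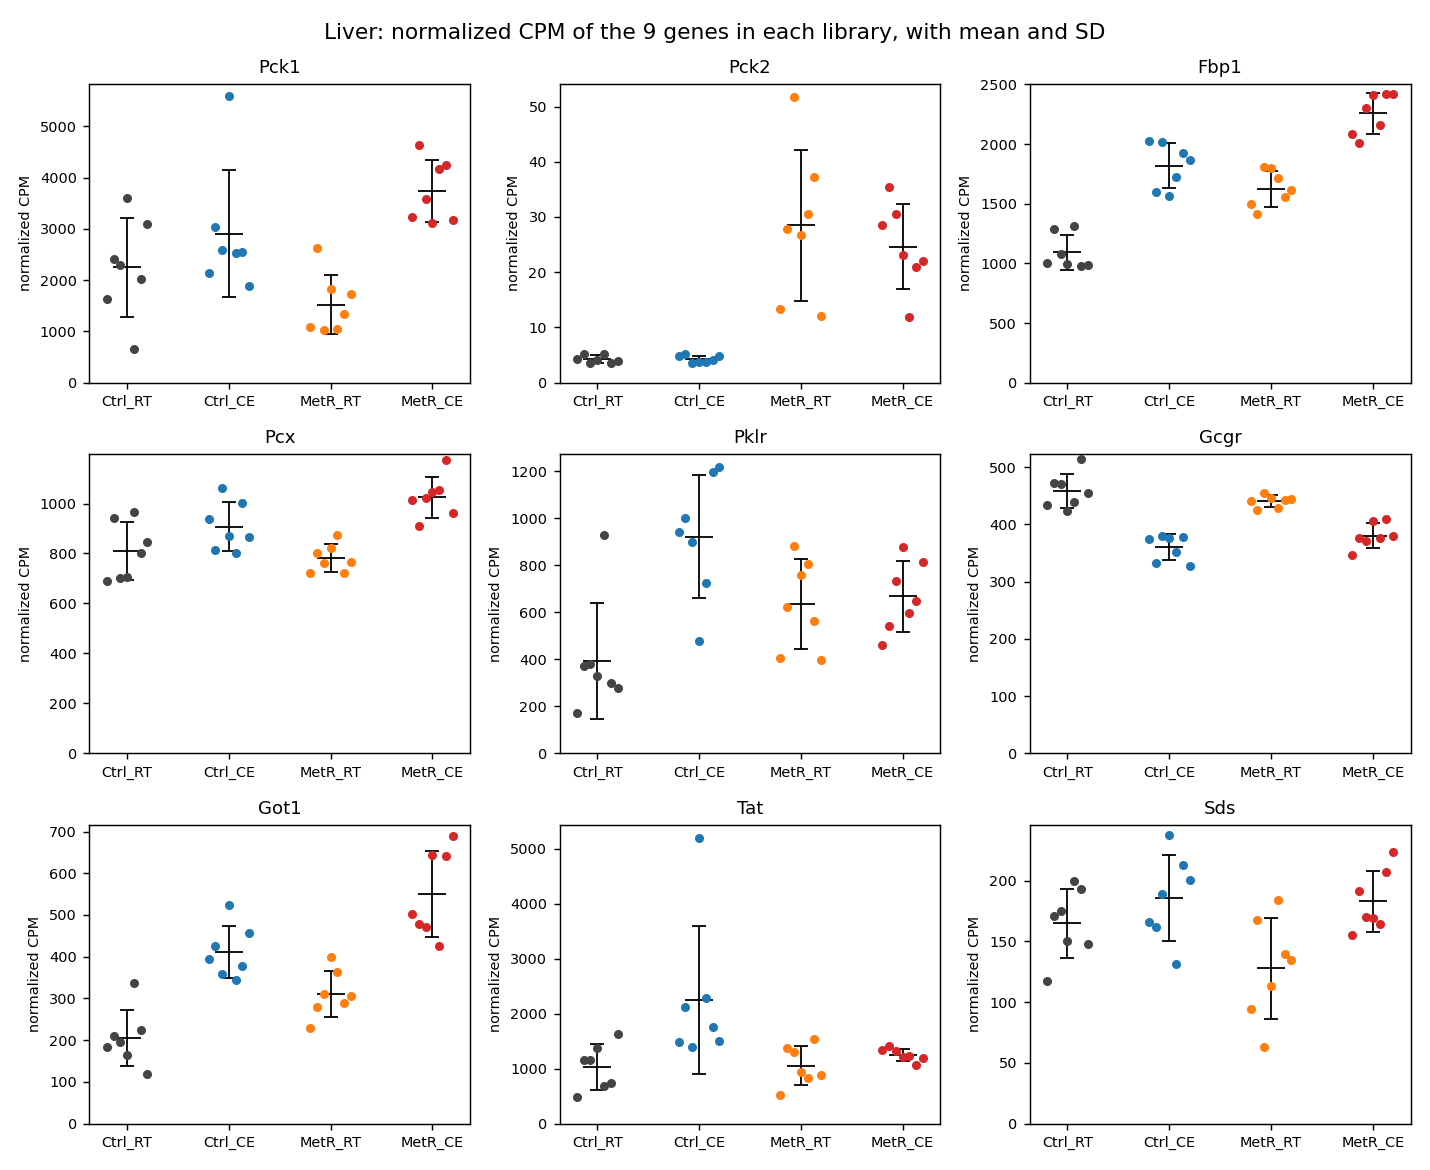
CPM of the 9 members in each of the 28 liver libraries, by group (7 mice each); points are libraries and bars the group means with SD, each panel with its own axis from 0. Pck2 lies at 3.51 to 5.19 CPM in both control groups and at 11.98 to 51.7 CPM in both MetR groups, and single libraries stand far from their group for Pck1, Pklr and Tat.

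Pck2, the mitochondrial carboxykinase, rose with the MetR diet at both temperatures and by more than any other member. Its CPM ran from 3.51 over a median of 4.17 to 5.19 in Ctrl_RT and from 3.65 over 4.13 to 5.15 in Ctrl_CE. It ran from 12.03 over 27.8 to 51.7 in MetR_RT and from 11.98 over 23.1 to 35.4 in MetR_CE. Every MetR library lay above every control-diet library. The log2 fold change was 2.75 ± 0.25 in MetR_RT (6.71-fold, adjusted p = 3.1e-09) and 2.53 ± 0.25 in MetR_CE (5.77-fold, adjusted p = 5.3e-09). Between the cold groups, MetR_CE exceeded Ctrl_CE by 2.51 ± 0.25 (adjusted p = 8.8e-08), a contrast in which 5.26% of all genes were called. Cold alone left Pck2 at 0.02 ± 0.27 (adjusted p = 0.96), and the interaction was -0.24 ± 0.35.

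Got1, the cytosolic aspartate aminotransferase, which interconverts aspartate and oxaloacetate, was the member called in all 3 comparisons with Ctrl_RT. It stood at 120 to 338 CPM in Ctrl_RT (median 196), 345 to 524 in Ctrl_CE (median 395), 230 to 399 in MetR_RT (median 305) and 427 to 688 in MetR_CE (median 502). All libraries of both cold groups lay above all Ctrl_RT libraries, while MetR_RT overlapped Ctrl_RT. The log2 fold change was 1.01 ± 0.16 in Ctrl_CE (adjusted p = 1.2e-05), 0.60 ± 0.16 in MetR_RT (0.0058) and 1.42 ± 0.16 in MetR_CE (3.4e-08). Within the MetR diet, cold added 0.82 ± 0.16 (adjusted p = 0.00028), in a contrast where 5.19% of genes were called. The MetR_RT call stood close to the 1.5-fold limit: without Ctrl_RT replicate 1, 3, 4 or 7 or MetR_RT replicate 4 or 5 the log2 fold change was 0.57, 0.58, 0.55, 0.50, 0.53 and 0.55 and was no longer called, and DESeq2 gave 0.58.

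Fbp1, which catalyses an irreversible step of gluconeogenesis, rose in both cold groups. Its CPM was 981 to 1317.3 in Ctrl_RT (median 1006), 1568 to 2027 in Ctrl_CE (median 1871), 1415 to 1805 in MetR_RT (median 1611) and 2013 to 2423 in MetR_CE (median 2305). Each treated group lay wholly above Ctrl_RT, and MetR_CE lay wholly above MetR_RT. The change was 0.74 ± 0.08 in Ctrl_CE (1.66-fold, adjusted p = 1.3e-07) and 1.05 ± 0.08 in MetR_CE (2.07-fold, adjusted p = 9.6e-11). In MetR_RT it was 0.57 ± 0.08 (1.49-fold, adjusted p = 8.3e-06), under the fold limit by a narrow margin: it became called without Ctrl_RT replicate 2 or 5 (0.61 and 0.62) or MetR_RT replicate 1 or 2 (0.59 and 0.61). The interaction was -0.26 ± 0.12 (adjusted p = 0.26).

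Pck1, the cytosolic carboxykinase and a classic target of glucagon signalling, rose with cold on the MetR diet. It stood at 648 to 3598 CPM in Ctrl_RT (median 2287), 1889 to 5585 in Ctrl_CE (median 2549), 1026 to 2619 in MetR_RT (median 1336) and 3117 to 4631 in MetR_CE (median 3590). Every MetR_CE library lay above every MetR_RT library, and all other pairs of groups overlapped. The difference between MetR_CE and MetR_RT was 1.29 ± 0.26 (2.45-fold, adjusted p = 0.00065). Against Ctrl_RT it rose by 0.73 ± 0.26 in MetR_CE (adjusted p = 0.032), and it was uncalled in Ctrl_CE (0.37 ± 0.26, adjusted p = 0.31) and MetR_RT (-0.56 ± 0.26, adjusted p = 0.14).

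Single mice weighed on these Pck1 values. The MetR_CE call was lost without Ctrl_RT replicate 1, 5 or 6 (0.68, 0.58 and 0.71) or MetR_CE replicate 2, 5 or 6 (0.68, 0.71 and 0.70), with adjusted p from 0.0502 to 0.0637. DESeq2 with shrunken fold changes (apeglm) put it at 0.56, under the fold limit. The MetR_RT value became a called decrease without Ctrl_RT replicate 5 (-0.73, adjusted p = 0.020), the library with the lowest Pck1 level of its group, or without MetR_RT replicate 2 (-0.74, adjusted p = 0.043). With both Ctrl_RT replicate 5 and Ctrl_CE replicate 4 left out, Ctrl_CE stood at -0.02 and MetR_CE at 0.576, under the fold limit and no longer a call. The interaction, 0.92 ± 0.37 (adjusted p = 0.20) with all mice, was then 1.33 (adjusted p = 0.0045). The difference between MetR_CE and Ctrl_CE, 0.36 ± 0.26 (adjusted p = 0.43) with all mice, then became a call at 0.597 (adjusted p = 0.034). Leaving out both was chosen after seeing the data, for levels that include those of Pck1, so the values without them are no separate test.

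Pcx, the mitochondrial carboxylase that supplies oxaloacetate, moved little in the liver. Its CPM was 689 to 968 in Ctrl_RT (median 803), 802 to 1062 in Ctrl_CE (median 872), 720 to 874 in MetR_RT (median 768) and 910 to 1174 in MetR_CE (median 1023). MetR_CE lay wholly above MetR_RT. The differences stayed under 1.5-fold, at 0.34 ± 0.08 for MetR_CE against Ctrl_RT (adjusted p = 0.0015) and 0.39 ± 0.08 for MetR_CE against MetR_RT (adjusted p = 0.00079). Pcx stood at 0.17 ± 0.08 in Ctrl_CE and -0.05 ± 0.08 in MetR_RT.

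Pklr, the glycolytic kinase that works against the carboxykinases, stood above Ctrl_RT in both cold groups. On the MetR diet the cold and room-temperature groups overlapped, with medians of 648 and 624 CPM. It ran from 170 over a median of 327 to 930 CPM in Ctrl_RT, from 476 over 939 to 1219 in Ctrl_CE, from 395 over 624 to 881 in MetR_RT and from 460 over 648 to 879 in MetR_CE. The Ctrl_RT maximum came from replicate 5, and the next highest of that group was 379 CPM, below all libraries of the other groups. Pklr rose by 1.23 ± 0.26 in Ctrl_CE (adjusted p = 0.00054) and by 0.76 ± 0.26 in MetR_CE (adjusted p = 0.023), with 0.69 ± 0.26 in MetR_RT (adjusted p = 0.061). The MetR_CE call was lost without Ctrl_RT replicate 1 or 7 or MetR_CE replicate 4 (0.64, 0.70 and 0.69, adjusted p from 0.0503 to 0.0552). DESeq2 with shrunken fold changes (apeglm) put it at 0.57, under the fold limit. The MetR_RT value became a called increase without Ctrl_RT replicate 5 (1.05, adjusted p = 0.00062), MetR_RT replicate 1 or 7 (both 0.77) or Ctrl_CE replicate 4 (0.68).

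The interaction of Pklr, the cold effect on the MetR diet minus that on the control diet, was -1.15 ± 0.36 (adjusted p = 0.095). No member passed the interaction test in the liver, where 1.06% of all genes did, and DESeq2 also called 0. An unadjusted p under 0.05 was found for 4 of 9 members, beside 3562 of 22143 genes tested. Without Ctrl_RT replicate 5 the Pklr interaction was -1.53 (adjusted p = 0.0056), without Ctrl_CE replicate 4 it was -1.27 (adjusted p = 0.040), and without both it was -1.64 (adjusted p = 0.00073). These libraries stood out by their own levels of the members, Pklr among them, and leaving out both was chosen after seeing the data. The values without them show how the result depends on single mice and are no separate test.

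Gcgr, the glucagon receptor, stood slightly lower in the cold. It was at 424 to 514 CPM in Ctrl_RT (median 455), 327 to 379 in Ctrl_CE (median 375), 426 to 455 in MetR_RT (median 443) and 347 to 409 in MetR_CE (median 376). Neither cold group overlapped either room-temperature group. The differences were under 1.5-fold, at -0.35 ± 0.05 in Ctrl_CE (adjusted p = 9.1e-06), -0.27 ± 0.05 in MetR_CE (adjusted p = 0.00020) and -0.06 ± 0.05 in MetR_RT.

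Tat, tyrosine aminotransferase, which starts tyrosine breakdown and responds to glucocorticoids and glucagon, rose with cold on the control diet. It stood at 482 to 1638 CPM in Ctrl_RT (median 1153), 1393 to 5200 in Ctrl_CE (median 1753), 520 to 1542 in MetR_RT (median 935) and 1069 to 1409 in MetR_CE (median 1232). The groups overlapped, and the Ctrl_CE maximum belonged to replicate 4, ahead of 2287 CPM in the next library. The change was 1.12 ± 0.27 in Ctrl_CE (2.18-fold, adjusted p = 0.0017), 0.03 ± 0.26 in MetR_RT and 0.28 ± 0.26 in MetR_CE. Without Ctrl_CE replicate 4 the Ctrl_CE change was 0.78 (adjusted p = 0.0071). MetR_CE was lower than Ctrl_CE by 0.84 ± 0.26 on the log2 scale (log2 fold change -0.84, adjusted p = 0.033). That call was lost without Ctrl_CE replicate 4 (-0.49, adjusted p = 0.15), and narrowly without MetR_CE replicate 4, 5, 6 or 7 (-0.84, -0.84, -0.81 and -0.83, adjusted p from 0.0507 to 0.0611). The interaction was -0.88 ± 0.37 (adjusted p = 0.23).

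Sds, serine dehydratase, which turns serine into pyruvate, was not called in any of the 6 liver contrasts. It stood at 118 to 200 CPM in Ctrl_RT (median 171), 131 to 237 in Ctrl_CE (median 189), 63.0 to 184 in MetR_RT (median 135) and 155 to 224 in MetR_CE (median 170). All pairs of groups overlapped. The largest of its differences was 0.51 ± 0.16 between MetR_CE and MetR_RT (adjusted p = 0.024), under the fold limit, which it passed without MetR_RT replicate 2 or 5 (0.59 and 0.64).

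**Figure D2:**
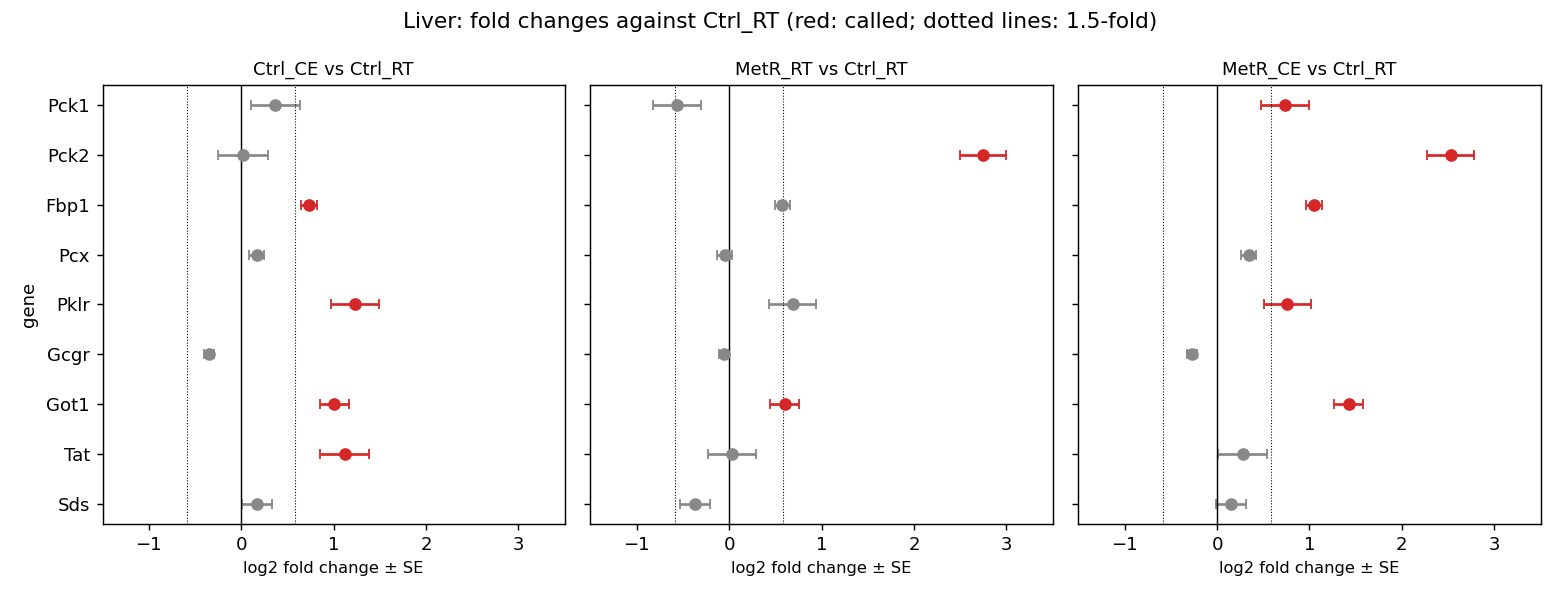
Log2 fold changes of the 9 members in liver against Ctrl_RT for Ctrl_CE, MetR_RT and MetR_CE, with SE as error bars, called values in red and others in grey; dotted lines mark the 1.5-fold limits. Pck2 stands at 2.75 and 2.53 in the MetR groups and at 0.02 in Ctrl_CE, and Fbp1 and Got1 have their highest values in MetR_CE.

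Mouse to mouse, the libraries that stood apart did so for several members. Ctrl_CE replicate 4 had the highest Pck1 (5585 CPM) and Tat (5200 CPM) of all 28 livers and the lowest Pklr of its group (476 CPM), and its 5 lymphoid markers summed to 45.7 CPM, the highest of any liver. Ctrl_RT replicate 5 had the lowest Pck1 of all livers (648 CPM), the highest Pklr (930 CPM) and Got1 (338 CPM) of its group, and a hepatocyte marker sum of 84031 CPM, again the highest of any liver. The iBAT library numbered Ctrl_RT replicate 5 came from another mouse, while iWAT and eWAT of this mouse were sequenced. Its iWAT library had 504 CPM of Pck1, the lowest of all iWAT libraries, and its eWAT library, left out by the study, had 309 CPM of Pck1. The part of the marker sums in these levels was not tested.

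The neighbouring steps of the pathway were read from 3 lists. Of 28 genes for other glucose steps and carriers, 6 rose in Ctrl_CE, 3 rose and 1 fell in MetR_RT, and 6 rose and 1 fell in MetR_CE, with medians of 0.16, 0.05 and 0.30. The shares of all genes called in these comparisons, for this list and the next ones, were 11.9%, 6.91% and 13.5%. In Ctrl_CE the genes that rose included Pdk4, which switches off pyruvate dehydrogenase (0.98 ± 0.26), and Pkm, the other pyruvate kinase gene (0.85 ± 0.14). In MetR_RT the largest changes were in Ldha, lactate dehydrogenase A (-0.84 ± 0.12), Gpi1, glucose phosphate isomerase (0.64 ± 0.16), and Mpc1, a subunit of the mitochondrial pyruvate carrier (0.60 ± 0.09). The last of these was under the fold limit without Ctrl_RT replicate 3 or 4 (0.56 and 0.58) or MetR_RT replicate 1 or 6 (both 0.56), and Gpi1 was so without MetR_RT replicate 3 (0.51). In MetR_CE the genes that rose included Gpi1 (0.98 ± 0.16) and Slc2a2, the glucose transporter GLUT2 (0.90 ± 0.12).

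Of 35 genes of glucagon signalling and transcriptional control, 5 rose in Ctrl_CE, 3 rose in MetR_RT, and 7 rose and 1 fell in MetR_CE, with medians of 0.21, 0.16 and 0.20, beside the same 11.9%, 6.91% and 13.5% of all genes. Pde4d, a phosphodiesterase that degrades cyclic AMP, rose by 1.76 ± 0.21 in Ctrl_CE and 1.74 ± 0.21 in MetR_CE. Ppargc1a, the coactivator PGC-1α, rose by 1.13 ± 0.20 and 1.26 ± 0.20. Adcy5, an adenylate cyclase, rose by 0.78 ± 0.16 in Ctrl_CE, and Dusp1, a phosphatase of MAP kinases, fell in MetR_CE with a log2 fold change of -1.48 ± 0.31. Txnip, a glucose-responsive regulator of glucose uptake, rose by 0.66 ± 0.22 in Ctrl_CE, 1.25 ± 0.22 in MetR_RT and 1.07 ± 0.22 in MetR_CE.

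The other calls in MetR_RT of that list were weaker. Pde4d stood at 0.67 ± 0.22 and lost its call without Ctrl_RT replicate 1, 4, 5 or 6 or MetR_RT replicate 1, 5, 6 or 7 (0.60, 0.64, 0.54, 0.66, 0.62, 0.63, 0.63 and 0.65). Nr4a1, a nuclear receptor induced by cyclic AMP, stood at 2.03 ± 0.56, and at 1.38 (adjusted p = 0.065) without MetR_RT replicate 4. It was the only gene of the 3 lists called in the interaction, at -3.25 ± 0.83 (adjusted p = 0.039). No gene of its list was called in the interaction without Ctrl_RT replicate 1, 5, 6 or 7, MetR_RT replicate 2, 3 or 4, Ctrl_CE replicate 2, 5 or 7 or MetR_CE replicate 1, 2, 4, 5, 6 or 7, and 2 were without MetR_RT replicate 7.

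The list of amino acid breakdown and the urea cycle also held 2 synthetase genes, Asns and Glul. Of its 26 genes, 2 rose and 1 fell in Ctrl_CE, 2 rose in MetR_RT and 7 rose in MetR_CE. The shares of all genes called were 11.9%, 6.91% and 13.5%, and the medians of the list were 0.13, 0.13 and 0.16. Asns, asparagine synthetase, a well-known ATF4 target, rose by 2.00 ± 0.20 in MetR_RT and 1.501 ± 0.20 in MetR_CE. Gpt2, the mitochondrial alanine aminotransferase, rose in all 3 comparisons, by 0.62 ± 0.14, 0.79 ± 0.14 and 1.15 ± 0.14, the first of which was 0.57 and uncalled without Ctrl_RT replicate 1. Oat, ornithine aminotransferase, rose by 0.78 ± 0.11 in Ctrl_CE and 1.23 ± 0.11 in MetR_CE, and Agxt, alanine-glyoxylate aminotransferase, fell in Ctrl_CE (-0.77 ± 0.12).

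Among the 12505 genes that averaged 1 CPM or more in liver, the genes most like each member were those with the smallest root mean square difference of centred log2 CPM over the 28 livers. Libraries, groups and sequencing depth are shared by all genes, so likeness is a description. Got1 was closest to Mat1a (0.217), against a median of 0.664 over all genes. Fbp1 was closest to Slc10a1 (0.165; median 0.478). For Pck2, whose log2 levels spread most, the nearest were Aldh1l2 (0.512) and Ces1b (0.513; median 1.34). Both carried log2 fold changes of 3.23 and 2.64 in MetR_RT.

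Pklr was nearest to Rrm2 (0.293) and Pdk1 (0.330; median 0.731), Tat to Klf3 (0.381) and Map3k13 (0.394; median 0.706), and Sds to Plec (0.252) and Etnk2 (0.254; median 0.481). Gcgr had the smallest distances, to Aup1 (0.0757) and Spr (0.0840; median 0.295), followed by Pcx with Agpat3 and Lclat1 (both 0.129; median 0.332). Both also varied least, with an SD of log2 CPM of 0.162 and 0.208 over the livers, against 0.613 for Got1 and 1.32 for Pck2. A distance grows with a gene's spread, so this order does not rank likeness between members. For Pck1 the nearest genes were Ctcfl (0.462) and the unnamed ENSMUSG00000120918.1 (0.487; median 0.771).

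In iBAT, where brown adipocytes burn fuel for heat, Got1 rose in all 3 comparisons with Ctrl_RT. Its CPM was 15.5 to 37.1 in Ctrl_RT (median 29.4), 135 to 151 in Ctrl_CE (median 141), 37.2 to 50.4 in MetR_RT (median 44.8) and 116 to 147 in MetR_CE (median 127). No treated group overlapped Ctrl_RT, and the cold groups lay wholly above both room-temperature groups. Got1 rose by 2.32 ± 0.13 in Ctrl_CE (5.004-fold, adjusted p = 1.3e-13), 0.65 ± 0.12 in MetR_RT (adjusted p = 0.0016) and 2.18 ± 0.13 in MetR_CE (adjusted p = 4.3e-13). Within the MetR diet cold raised it by 1.54 ± 0.12, where 8.53% of genes were called. The interaction was -0.79 ± 0.17 (adjusted p = 0.022), in a test that called 0.372% of all genes. With the 3 disputed libraries left out it was -0.81, and with their tags in place of the titles -1.10 (adjusted p = 0.22). Those libraries, titled MetR_RT 1, Ctrl_CE 1 and MetR_CE 1, had 37.2, 144 and 120 CPM of Got1, and their tags name Ctrl_RT, MetR_RT and Ctrl_CE. The first was the lowest of MetR_RT by title, next to the Ctrl_RT maximum of 37.1 CPM. Other tissues of the same mice carry the groups of the titles, so a fit by tag puts these 3 mice in groups that their other labels contradict.

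Of the other members at 1 CPM or more in iBAT, Pcx fell in the cold. It stood at 943 to 1417 CPM in Ctrl_RT (median 1247), 717 to 856 in Ctrl_CE (median 796), 1106 to 1700 in MetR_RT (median 1309) and 734 to 1064 in MetR_CE (median 885). Ctrl_CE did not overlap Ctrl_RT, nor MetR_CE MetR_RT. The log2 fold change was -0.61 ± 0.10 in Ctrl_CE (adjusted p = 1.7e-05) and -0.62 ± 0.09 for MetR_CE against MetR_RT (adjusted p = 7.2e-06), and -0.45 ± 0.10 against Ctrl_RT, under the fold limit. The Ctrl_CE call fell under that limit at -0.58 with the 3 disputed libraries left out and at -0.49 by tag.

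Pck2 in iBAT was 9.55 to 13.2 CPM in Ctrl_RT (median 12.6), 9.08 to 34.8 in Ctrl_CE (median 16.1), 15.3 to 20.4 in MetR_RT (median 17.7) and 13.7 to 22.1 in MetR_CE (median 18.2). Both MetR groups lay above Ctrl_RT, while Ctrl_CE overlapped it. Pck2 rose by 0.60 ± 0.18 in Ctrl_CE (adjusted p = 0.010) and 0.62 ± 0.18 in MetR_CE (adjusted p = 0.0071), with 0.54 ± 0.18 in MetR_RT (adjusted p = 0.061). Without Ctrl_RT replicate 5, in iBAT another mouse than in liver, both calls went under the fold limit, at 0.54 and 0.56. By tag they did so too (0.57 and 0.56). The Ctrl_CE call was also lost in a fit of only the 2 groups compared (0.61, adjusted p = 0.055).

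Pck1 in iBAT was 2385 to 4736 CPM in Ctrl_RT (median 3598), 1916 to 2816 in Ctrl_CE (median 2418), 2129 to 3234 in MetR_RT (median 2681) and 2514 to 4025 in MetR_CE (median 3083). The groups overlapped, with a difference of -0.55 ± 0.15 in Ctrl_CE (adjusted p = 0.0040), under the fold limit, and an interaction of 0.78 ± 0.20 (adjusted p = 0.053), which DESeq2 called at 0.75 (adjusted p = 0.011).

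The remaining members were low in iBAT. Fbp1 ranged from 0.105 to 1.898 CPM and rose in Ctrl_CE by 1.32 ± 0.35 (adjusted p = 0.0037), with 4 of 6 Ctrl_CE libraries above the highest Ctrl_RT library. Gcgr and Sds stayed under 1 CPM in every library, and Pklr had too few counts to be tested. Tat reached 2.44 CPM in Ctrl_RT replicate 5 and at most 0.0501 CPM in the treated groups. The fitted log2 fold changes of Tat, -5.07, -5.02 and -5.09, were called and rested on that library, whose hepatocyte markers summed to 47.8 CPM against a group median of 0.748. With Tat included, 5, 2 and 3 members were called in Ctrl_CE, MetR_RT and MetR_CE, beside 14.7%, 2.5% and 14.7% of all genes. Without Ctrl_RT replicate 5 the counts were 3, 1 and 1.

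**Figure D3:**
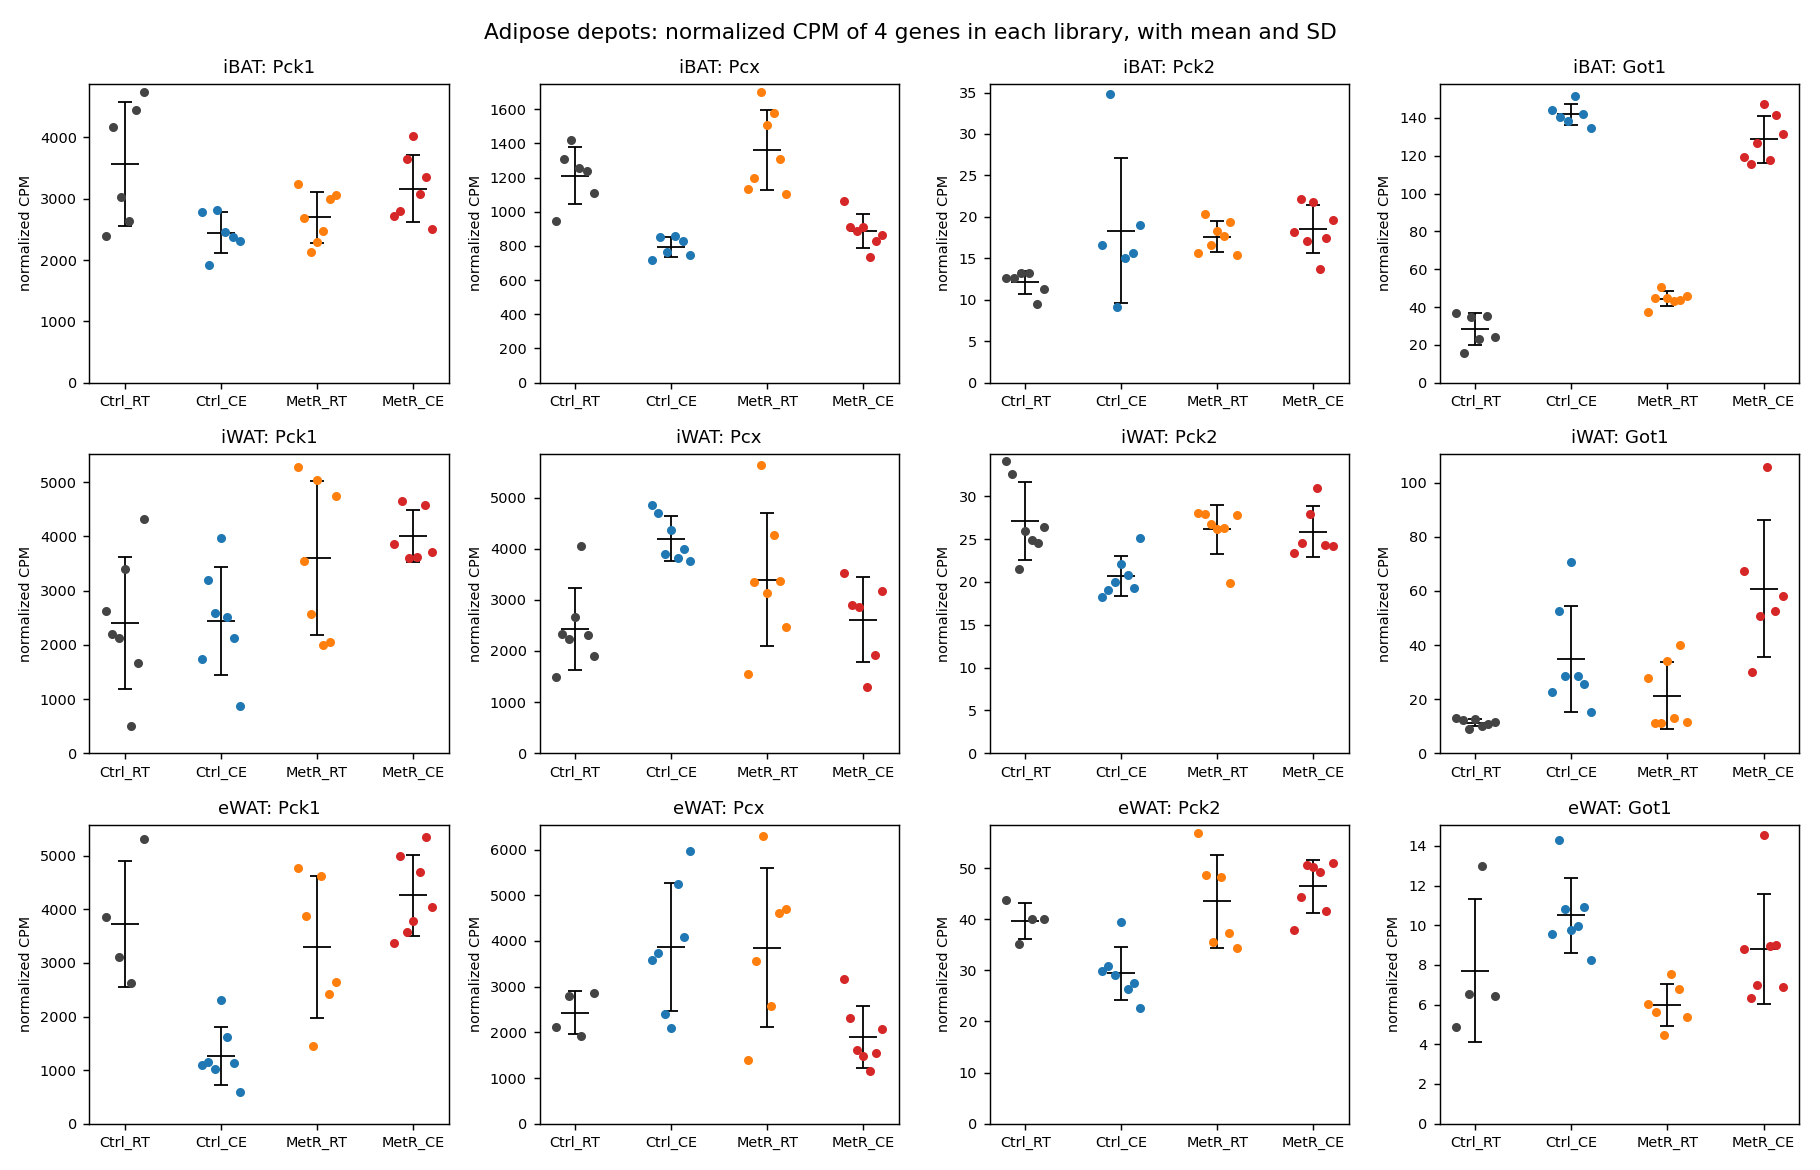
CPM of Pck1, Pck2, Pcx and Got1 in iBAT, iWAT and eWAT by group; points are libraries and bars the group means with SD, and each panel has its own axis from 0. Got1 separates cold from room temperature in iBAT (135 to 151 CPM in Ctrl_CE, 15.5 to 37.1 in Ctrl_RT), and Pck1 in eWAT is low in Ctrl_CE (591 to 2300 CPM).

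In iWAT, an adipose depot in which cold can induce brown-like cells, Got1 again rose in all 3 comparisons. It was 9.04 to 13.1 CPM in Ctrl_RT (median 11.5), 15.1 to 70.7 in Ctrl_CE (median 28.4), 11.1 to 39.9 in MetR_RT (median 12.9) and 29.8 to 106 in MetR_CE (median 55.5). Both cold groups lay above Ctrl_RT, and MetR_RT overlapped it. The log2 fold change was 1.62 ± 0.33 in Ctrl_CE (adjusted p = 0.00052), 0.91 ± 0.33 in MetR_RT (0.047) and 2.42 ± 0.35 in MetR_CE (3.9e-06). Cold on the MetR diet added 1.52 ± 0.34 (adjusted p = 0.0092), where 1.88% of genes were called. The MetR_RT call was lost without Ctrl_RT replicate 5 (0.88, adjusted p = 0.070). The 4 brown adipocyte markers moved beside it, with summed medians of 228, 3287, 1655 and 4837 CPM in Ctrl_RT, Ctrl_CE, MetR_RT and MetR_CE, while macrophage markers had 422, 175, 128 and 86.9 CPM and lymphoid markers 55.2, 27.5, 22.8 and 13.7 CPM in the same order. Skeletal muscle markers had medians of 138, 175, 659 and 863 CPM and reached 18859 CPM in a MetR_RT library. The part of these shifts in the members' iWAT levels was not tested.

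Pcx in iWAT was 1499 to 4060 CPM in Ctrl_RT (median 2313), 3753 to 4847 in Ctrl_CE (median 3998), 1558 to 5635 in MetR_RT (median 3344) and 1298.8 to 3519 in MetR_CE (median 2883). All MetR_CE libraries lay below all Ctrl_CE libraries. The edgeR fit of all groups did not call that difference, while DESeq2 (-0.70, adjusted p = 0.040) and an edgeR fit of only the 2 groups (-0.69, adjusted p = 0.048) did. Pcx rose in Ctrl_CE by 0.79 ± 0.23 (adjusted p = 0.010), and the interaction, -1.17 ± 0.33, just missed the threshold (adjusted p = 0.052). DESeq2 called it (-1.20, adjusted p = 0.0071), as did edgeR without Ctrl_RT replicate 5 (-1.34, adjusted p = 0.012), without which MetR_RT was called as well (0.66, adjusted p = 0.035; 0.48 ± 0.23 with it).

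Pck1 was 504 to 4321 CPM in Ctrl_RT (median 2203), 878 to 3980 in Ctrl_CE (median 2520), 2002 to 5281 in MetR_RT (median 3545) and 3595 to 4655 in MetR_CE (median 3792), and the groups overlapped. Its differences from Ctrl_RT were 0.02 ± 0.32, 0.58 ± 0.33 and 0.74 ± 0.34, none called.

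Pck2, which rose so clearly in the liver, was 21.5 to 34.1 CPM in iWAT Ctrl_RT (median 25.97), 18.2 to 25.1 in Ctrl_CE (median 19.96), 19.9 to 28.1 in MetR_RT (median 26.7) and 23.4 to 30.96 in MetR_CE (median 24.5). The groups overlapped, with -0.39 ± 0.10 in Ctrl_CE (adjusted p = 0.0028, under the fold limit), -0.05 ± 0.10 in MetR_RT and -0.07 ± 0.10 in MetR_CE.

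Gcgr lay between 0.573 and 1.94 CPM in all iWAT libraries and was uncalled in all 6 contrasts, with overlapping groups. Its medians were 1.18, 0.889, 1.10 and 1.43 CPM in Ctrl_RT, Ctrl_CE, MetR_RT and MetR_CE. Fbp1 (at most 1.37 CPM) and Tat (0 in every Ctrl_RT library, at most 0.681 CPM elsewhere) were called in Ctrl_CE, and Sds stayed under 0.4 CPM. In all, 4, 1 and 1 of the members were called in Ctrl_CE, MetR_RT and MetR_CE, beside 15.9%, 11.6% and 22.4% of all genes. The interaction test, at 1.65% of all genes, called no member by edgeR and 1 by DESeq2. In edgeR, 2 members had an unadjusted p under 0.05, beside 4921 of 26428 genes tested.

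In eWAT, Pck1 and Pcx differed between the diets in the cold, in opposite directions. Pck1 was 3851, 3110, 2621 and 5312 CPM in the 4 Ctrl_RT libraries, 591 to 2300 in Ctrl_CE (median 1126), 1443 to 4771 in MetR_RT (median 3258) and 3371 to 5344 in MetR_CE (median 4038). Ctrl_CE lay wholly below Ctrl_RT and below MetR_CE. Pck1 fell in Ctrl_CE (log2 fold change -1.55 ± 0.30, adjusted p = 0.0047), and it was the only member called there, beside 2.42% of all genes. On the MetR diet the cold difference was 0.37 ± 0.28 (adjusted p = 0.60), and the interaction was 1.92 ± 0.41 (adjusted p = 0.015). In the cold, MetR_CE exceeded Ctrl_CE by 1.75 ± 0.27 (3.35-fold, adjusted p = 0.00034), in a contrast that called 4.35% of all genes. Summed adipocyte markers had medians of 25587.8, 18313.3, 18659.8 and 22554.5 CPM in Ctrl_RT, Ctrl_CE, MetR_RT and MetR_CE. They ran from 19472.1 to 29066.2 CPM in Ctrl_RT and from 15174.4 to 24598.9 in Ctrl_CE. Summed epithelial markers had medians of 16.57, 68.6, 10.3 and 10.5 CPM in the same group order. The part of these shifts in the members' eWAT levels was not tested.

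Pcx in eWAT was 2117, 2794, 1930 and 2867 CPM in Ctrl_RT, 2095 to 5972 in Ctrl_CE (median 3729), 1386 to 6289 in MetR_RT (median 4092) and 1145 to 3164 in MetR_CE (median 1602). The groups overlapped. The interaction was -1.69 ± 0.46 (adjusted p = 0.043), and MetR_CE was below Ctrl_CE with a log2 fold change of -1.03 ± 0.29 (adjusted p = 0.022). Both calls were narrow. Leaving out 1 library ended the interaction call in 16 of 24 cases (-1.52 to -1.80): all 4 Ctrl_RT libraries, MetR_RT replicates 2, 3, 5 and 6, Ctrl_CE replicates 5, 6 and 7, and MetR_CE replicates 3 to 7. The Ctrl_CE comparison lost its call without Ctrl_CE replicate 7 (-0.90) or MetR_CE replicate 5 (-0.93).

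The interaction test called these 2 members beside 2.3% of all genes. With all deposited eWAT libraries in the fit neither was called, at 1.51 for Pck1 (adjusted p = 0.23) and -1.61 for Pcx (adjusted p = 0.14), and the Ctrl_CE difference of Pck1 was -1.05 (adjusted p = 0.068). The difference of Pcx between MetR_CE and Ctrl_CE was then -1.01 (adjusted p = 0.093), no longer a call.

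Pck2 was 43.7, 35.1, 40.03 and 39.96 CPM in eWAT Ctrl_RT, 22.6 to 39.4 in Ctrl_CE (median 29.2), 34.4 to 56.8 in MetR_RT (median 42.8) and 37.9 to 51.1 in MetR_CE (median 49.2). Ctrl_CE and MetR_CE shared only the range from 37.9 to 39.4 CPM. Pck2 was higher in MetR_CE than in Ctrl_CE by 0.66 ± 0.12 (adjusted p = 0.00083) and uncalled against Ctrl_RT. Got1, which rose in the other 3 tissues, was 4.89, 6.52, 12.99 and 6.41 CPM in Ctrl_RT, 8.22 to 14.3 in Ctrl_CE (median 9.98), 4.49 to 7.54 in MetR_RT (median 5.83) and 6.35 to 14.5 in MetR_CE (median 8.78). Its groups overlapped, with 0.44 ± 0.23 in Ctrl_CE (adjusted p = 0.31), which became a call without Ctrl_RT replicate 6 (0.82, adjusted p = 0.037). In MetR_RT and MetR_CE against Ctrl_RT, 0 members were called by edgeR or DESeq2, where edgeR called 0.115% and 1.3% of all genes. In edgeR, 0 members had an unadjusted p under 0.05, beside 2622 and 4236 of 27786 genes tested.

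Fbp1, Pklr, Gcgr and Tat averaged over 1 CPM in eWAT, and none was called in any contrast. Gcgr was spread over all groups, whereas Fbp1, Pklr and Tat were high in some libraries and near 0 in others. Fbp1 was 0.371, 0, 18.99 and 0.0425 CPM in the Ctrl_RT libraries, and it ran up to 17.7 in Ctrl_CE (median 6.76), 3.58 in MetR_RT (median 0.723) and 12.5 in MetR_CE (median 2.67). Pklr was 0.135, 0, 30.8 and 0 CPM in Ctrl_RT and reached 28.4 in Ctrl_CE (median 12.1), 4.20 in MetR_RT (median 0.626) and 23.5 in MetR_CE (median 1.60). Gcgr was 2.87, 1.81, 3.26 and 3.91 CPM in Ctrl_RT, with medians of 1.30, 2.00 and 3.63 in Ctrl_CE, MetR_RT and MetR_CE. Tat was 0.641, 0.615, 0.0286 and 0 CPM in Ctrl_RT, with medians of 0.241, 0.231 and 0.549.

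Among the libraries used, those with the most Pklr also had the highest summed epithelial markers: 30.8 CPM of Pklr went with a summed epithelial level of 225 CPM, 28.4 with 216 and 23.5 with 178. The highest Tat, 10.6 CPM in Ctrl_CE replicate 5 and 4.94 in MetR_CE replicate 5, went with hepatocyte marker sums of 87.8 and 148 CPM, although the library with the highest sum, 182 CPM, had 2.78 CPM of Tat. Over the groups the epithelial sums ran from 3.91 to 225 CPM in Ctrl_RT, 6.57 to 216 in Ctrl_CE, 5.24 to 96.4 in MetR_RT and 1.87 to 178 in MetR_CE, and the part of these cells in the levels was not tested.

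**Figure D4:**
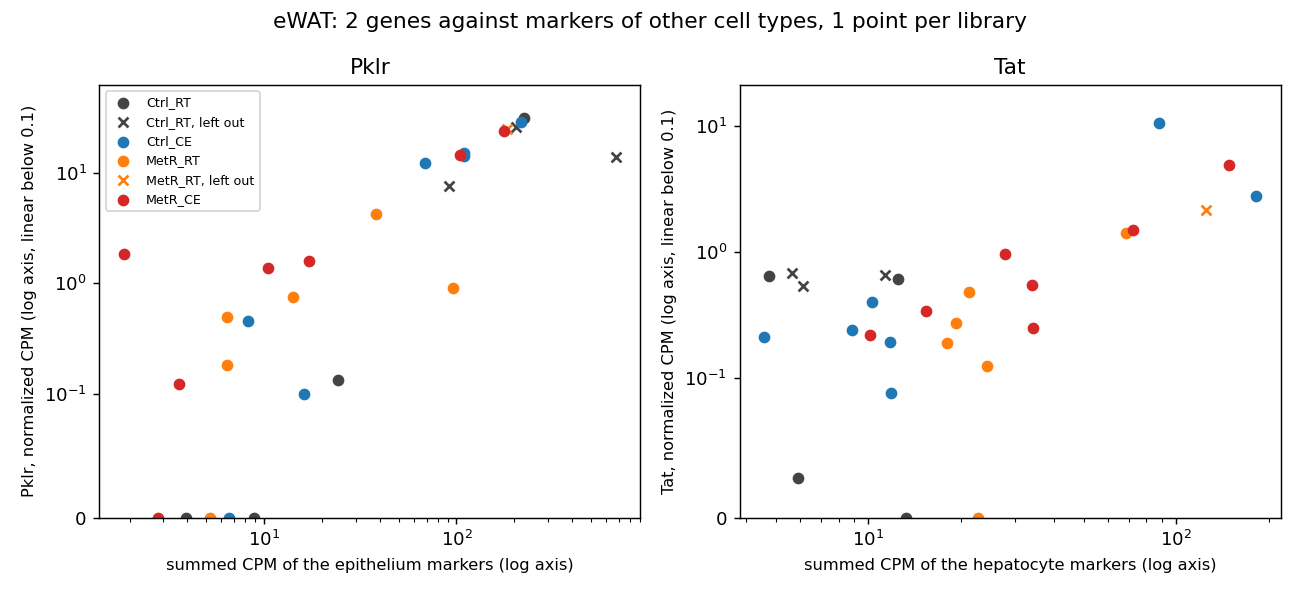
CPM of Pklr against the summed CPM of the 4 epithelial markers (left) and of Tat against that of the 5 hepatocyte markers (right) in each eWAT library, on log axes that are linear below 0.1 CPM on the vertical; dots are libraries used and crosses those the study left out. The highest Pklr level, 30.8 CPM, belongs to a library with an epithelial sum of 225 CPM, and the highest Tat level, 10.6 CPM, to one with a hepatocyte sum of 87.8 CPM.

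Whether a response differed between tissues was tested directly for the members at 1 CPM or more in both tissues, with all 105 libraries in 1 fit. The mouse was not a term in that fit, and voom with the mouse as a block was run beside it. Of 54 differences, edgeR called 15, voom 13, and both 10. The MetR response of Pck2 was larger in liver than in iBAT, by 2.23 ± 0.26 at room temperature and 1.92 ± 0.26 for MetR_CE, and larger than in iWAT by 2.83 ± 0.26 and 2.60 ± 0.26. All 4 were called by both fits. The tests of liver against iBAT called 9.31%, 2.36% and 8.65% of all genes for Ctrl_CE, MetR_RT and MetR_CE, and those of liver against iWAT 7.22% for MetR_RT and 13.6% for MetR_CE.

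Got1 had a smaller Ctrl_CE response in liver than in iBAT (-1.28 ± 0.32, adjusted p = 0.0016) and a smaller MetR_CE response than in iWAT (-0.99 ± 0.31, adjusted p = 0.014). In MetR_RT its liver response was uncalled against iBAT (-0.02 ± 0.31) and iWAT (-0.27 ± 0.31). The edgeR fit also left uncalled its difference from iWAT in Ctrl_CE (-0.56 ± 0.31) and from iBAT in MetR_CE (-0.74 ± 0.31). Voom called the last of these. Its MetR_CE response in iWAT exceeded that in eWAT by 2.24 ± 0.35 (adjusted p = 4.1e-07). The Ctrl_CE and MetR_RT responses of Got1 in iWAT exceeded those in eWAT by 1.15 ± 0.35 and 1.27 ± 0.36 in edgeR, which voom did not call. The iWAT and eWAT tests called 4.18%, 3.52% and 10.9% of all genes for Ctrl_CE, MetR_RT and MetR_CE.

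The Ctrl_CE responses of Pck2 and Pcx differed between iBAT and iWAT by 1.01 ± 0.25 and -1.39 ± 0.29 (adjusted p = 0.0026 and 0.00022), in a test that called 8.15% of genes. The Ctrl_CE response of Pck1 was higher in iWAT than in eWAT by 1.56 ± 0.41 (adjusted p = 0.0088). In edgeR alone, Pcx differed between liver and iBAT by 0.81 ± 0.29 in Ctrl_CE and 0.81 ± 0.28 in MetR_CE, and Pck1 between liver and iWAT by -1.13 ± 0.38 in MetR_RT. In voom alone, the response of Pck1 was lower in iBAT than in iWAT, with differences of -1.06 in MetR_RT (adjusted p = 0.043) and -1.01 in MetR_CE (adjusted p = 0.019). The share of all genes called by voom was not counted.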

How the data were processed

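Poly(A) RNA of 4 tissues from 28 mice was sequenced (110 libraries; 1 iBAT and 1 iWAT sample were lost in preparation). Per the labels and the study's methods, the authors aligned reads with STAR 2.7.9a to mm10 (GRCm38), used featureCounts 2.0.3 and Salmon 1.9.0, checked quality with MultiQC 1.19 and tested with DESeq2 1.46.0. The deposited values are whole-number raw counts per gene, 56884 genes in 3 tables. The tables' names point to Salmon, whose estimates divide reads shared by similar or overlapping transcripts, but no source states which tool gave them.

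The 9 members and the 3 companion lists were chosen with earlier results of these data known. Named genes followed a written rule: all members, the 3 called genes with the largest change per list and liver comparison at a mean level of 1 CPM or more, and the 2 most similar genes per member. Some results that the rule names are not reported here.

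The 5 libraries the study left out were identified by matching normalized means to the mean expression in the study's source data, and were put back as an alternative (best median deviation 0.251% in iBAT and 0.151% in eWAT, next best 1.15% and 0.775%). No fold change or p-value of the study was used. Each tissue was fitted with edgeR 4.0.16 (R 4.3.3) as a quasi-likelihood model of the 4 groups with TMM factors, over genes with at least 10 counts in total and with 6 contrasts; log2 CPM used a prior count of 2. The steps were tested on simulated data. Alternatives were DESeq2 1.42.0, apeglm 1.24.0, RLE factors, other filters, 2-group fits, a replicate block, leave-one-out fits in liver and eWAT, tags in place of titles in iBAT, and limma 3.58.1 voom with the mouse as a block for differences between tissues. Leaving out iBAT and iWAT Ctrl_RT replicate 5 or 2 liver libraries together was chosen after seeing the data. Ctrl_RT replicate 5 is the same mouse in liver, iWAT and eWAT, and another mouse in iBAT.

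Gene IDs carried no symbols: 51948 matched GENCODE M21 (GRCm38) by ID, of which 35 had the same version, 33 more were named from the study's source data and 4903 stayed unnamed. Of the marker list, Tf had no match. Promoter windows came from RefSeq (GRCm38.p6), with no window used for Sds.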

Additional observations from a re-analysis of the deposited data

Results flagged for a closer look

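Among 84 sets of a member and a group, 5 held a library far from the others by Dixon's criterion, where chance gives about 5% of such groups. In liver these were Pck1 at 5585 CPM (next highest 3040) and Tat at 5200 CPM (next highest 2287), both in Ctrl_CE replicate 4, and Pklr at 930 CPM (next highest 379) in Ctrl_RT replicate 5. In the depots they were Pck2 at 19.9 CPM in iWAT MetR_RT replicate 6, the lowest of its group, and Got1 at 14.5 CPM in eWAT MetR_CE replicate 4.

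The cold effect differed between the diets for Got1 in iBAT (log2 difference -0.79), Pck1 in eWAT (1.92) and Pcx in eWAT (-1.69). It was tested by the interaction term, and the report gives the libraries and labels on which these calls depend.

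In edgeR the effect of a condition differed between tissues in 15 of 54 tests, in comparisons that called 2.36% to 13.6% of all genes. Voom with the mouse as a block did not call those of Pcx between liver and iBAT or of Pck1 between liver and iWAT. Nor did it call those of Got1 between iWAT and eWAT in Ctrl_CE and MetR_RT. Liver minus iBAT was 0.81 for Pcx and -1.28 for Got1 in Ctrl_CE, 2.23 for Pck2 in MetR_RT, and 1.92 for Pck2 and 0.81 for Pcx in MetR_CE. Liver minus iWAT was -1.13 for Pck1 and 2.83 for Pck2 in MetR_RT, and 2.60 for Pck2 and -0.99 for Got1 in MetR_CE. The difference of iBAT from iWAT in Ctrl_CE was 1.01 for Pck2 and -1.39 for Pcx. From iWAT to eWAT it was 1.56 for Pck1 and 1.15 for Got1 in Ctrl_CE, 1.27 for Got1 in MetR_RT and 2.24 for Got1 in MetR_CE, each as iWAT minus eWAT.

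Among the eWAT libraries the study left out, Fbp1 stood at 71.5 CPM in Ctrl_RT replicate 4, 122 CPM in Ctrl_RT replicate 5 and 101 CPM in MetR_RT replicate 7, against at most 18.99 CPM in the libraries used. The summed epithelial markers of these libraries were 203, 91.1 and 183 CPM. Their part in the Fbp1 levels was not tested.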

How the results depend on the processing

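Over alternatives that did not leave out 1 library, 713 log2 fold changes kept their direction and side of the threshold, 24 gained a call, 39 lost one and 2 turned direction. When 1 library was left out these counts were 2054, 20, 56 and 10. The values that turned were all near 0. In liver Ctrl_CE, Pck1 was -0.021 with Ctrl_RT replicate 5 and Ctrl_CE replicate 4 both left out, and Pck2 ran from -0.021 to 0.081 without 1 library. Tat in liver MetR_RT was -0.054 with both left out and ran from -0.10 to 0.17 without 1 library. Unless stated, the cause of a change was not tested.

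Counts of called members moved as follows. In liver MetR_RT, 2 became 1 with DESeq2, apeglm, RLE factors or filterByExpr and 5 with both libraries left out (1 to 5 without 1 library), and in MetR_CE 5 became 3 with apeglm (3 to 5). Called members of the liver interaction went from 0 to 2 with both left out (0 to 1). Among glucose steps and carriers in MetR_RT, 4 calls became 1 with apeglm and 2 with filterByExpr (2 to 5), and in the interaction 0 became 1 with DESeq2 (0 to 1). For glucagon and transcriptional control, the interaction went from 1 to 2 with DESeq2 or filterByExpr (0 to 2).

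In iBAT Ctrl_CE, 5 became 2 with apeglm and 3 by tag. In MetR_RT, 2 became 1 with DESeq2, apeglm, filterByExpr or only 2 groups, and in MetR_CE 3 became 1 with apeglm. Without Ctrl_RT replicate 5 these counts were 3, 1 and 1. The iBAT interaction went from 1 to 2 with DESeq2, apeglm, filterByExpr, no filter or all deposited libraries and to 0 by tag. In iWAT, Ctrl_CE went from 4 to 2 with filterByExpr, MetR_RT from 1 to 0 with no filter, and the interaction from 0 to 1 with DESeq2, apeglm, RLE or filterByExpr and without Ctrl_RT replicate 5. In eWAT, Ctrl_CE went from 1 to 0 with all deposited libraries (1 to 2 without 1 library), and the interaction from 2 to 1 with no filter and 0 with all deposited libraries (1 to 3).

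With the replicate number as a block, called members were 2 in iBAT Ctrl_CE, 1 in iBAT MetR_RT, 0 in iWAT MetR_RT and 2 in iWAT MetR_CE. Each mouse belonged to 1 group, and samples of the same number did not deviate together in every pair (median correlation -0.00296 in liver, from -0.198 to 0.216, and -0.00509, 0.0834 and 0.109 in iBAT, iWAT and eWAT), so they share only a number.

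Counts over all genes moved most in interactions. That of liver, 234, was 411 with DESeq2, 424 with both libraries left out and 127 to 401 without 1 library, among the fits that moved it by over 1.5 times. That of iBAT, 89, was 200 with DESeq2, 140 with apeglm, 136 with filterByExpr, 1 by tag and 44 without the 3 disputed libraries. That of iWAT, 435, was 930 with DESeq2, 665 with filterByExpr and 901 without Ctrl_RT replicate 5. That of eWAT, 640, was 1114 with DESeq2, 1 with all deposited libraries, 1180 without MetR_RT replicate 1 and lower by 2.40 times without Ctrl_RT replicate 1. In eWAT Ctrl_CE, 673 became 366 with only 2 groups, 2595 with all deposited libraries and fewer by 1.79 to 2.54 times without 1 library (the most without Ctrl_RT replicate 1). In eWAT MetR_RT, 32 became 168 with DESeq2, 125 with apeglm, 55 with the block, 1 with only 2 groups, 6 with all and 11 to 64 without 1. In eWAT MetR_CE, 360 became 666 with DESeq2, 3268 with all and 173 without 1. Members under 1 CPM in the depots rest on few counts in each library.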
